A study of Mus musculus with 8 samples.

Results

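Keratins are the intermediate filament proteins of epithelial cells, and a filament is built from pairs of a type I and a type II keratin. The keratin genes described here form a group named suprabasal and stress keratins. Most of them are known from the layers above the basal layer of stratified epithelia or from stressed and wounded epidermis. The 10 genes are Krt1, Krt10, Krt4, Krt13, Krt6a, Krt6b, Krt16, Krt23, Krt78 and Krt80. They were taken by gene symbol from 55335 gene identifiers, among which 54 carry a keratin symbol, and all 10 passed the filter on low values. All are protein-coding genes on the minus strand, and their positions below are those of GENCODE M21 on GRCm38 (mm10). The same 10 genes were followed through prostate epithelium of 2 mouse genotypes, each in sham mice and in mice given ADT.

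In skin, a keratinocyte that leaves the basal layer exchanges the basal pair Krt5 and Krt14 for Krt1 and Krt10, whereas lining epithelia such as those of the oesophagus and the mouth use Krt4 and Krt13. Krt6a, Krt6b and Krt16 are switched on in skin by wounding and by hyperproliferation, and Krt17 often appears with them. The secretory cells of the prostate are a simple epithelium, whose usual keratins are Krt8, Krt18 and Krt19.

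RNA was sequenced from sorted prostate epithelial cells, which the series' design text describes as positive for EpCAM and CD24a and low for CD49f. The labels give every mouse 1 shared prostate genotype, abbreviated PP, and the PPK mice carried Kmt2cPC-/- in addition. Each genotype was sampled as sham at 3.5 months of age and as ADT at 6.5 months, with 2 libraries (A and B) in each of the 4 groups. ADT commonly stands for androgen deprivation therapy. Treatment and age changed together, so their effects cannot be told apart. The labels name neither the driver of the deletion nor the way ADT was done, and they do not say whether A and B came from separate animals. All p-values therefore measure the spread between libraries, which may be technical. Values are FPKM, a read count scaled to gene length and to the reads of the library, and levels of different genes are compared below only on this scale. Levels are given as mean ± SD of n = 2 libraries. Fold changes are differences of log2(FPKM + 1) ± SE from limma, which understate the change of genes near 0 FPKM. A gene counts as called when its Benjamini-Hochberg adjusted p over 14000 genes is under 0.05.

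Kmt2c, the histone methyltransferase gene deleted in PPK, was listed at 13.3 and 13.9 FPKM in PP sham, 8.67 and 8.15 in PPK sham, 10.3 and 9.33 in PP ADT and 6.60 and 6.36 in PPK ADT. It was lower in PPK and not absent, and the labels do not say which exons were removed. The epithelial surface gene Epcam was at 310 to 565 FPKM over all 8 libraries and the leukocyte gene Ptprc at 0.018 to 0.188. The prostate secretory gene Pbsn was listed at 0 in the ADT libraries of both genotypes. The tables hold no counts. Summed FPKM ran from 284015 to 333977 per library, and 12018 to 12496 genes reached 1 FPKM. In these bulk samples, fewer cells of a type and less RNA per cell cannot be told apart.

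Krt6a and Krt6b are neighbours on chromosome 15 and near-identical, which bears on every value of the pair. Their coding sequences (GENCODE M21, GRCm38) differ at 37 of 1659 aligned bases, an identity of 97.8%. Of all stretches of 50 bases in Krt6a transcripts, 40.2% also occur in Krt6b, and 44.5% of those of Krt6b occur in Krt6a. With any other annotated gene the shares were 45.7% for Krt6a and 50.1% for Krt6b. The window of 90 coding bases with the most differences, coding bases 787 to 876 on the minus strand, is shown. Its differing bases can part reads of the 2 genes, and capitals mark the 12 bases that differ. The window lies at chr15:101692484-101692573 in Krt6a and at chr15:101678303-101678392 in Krt6b.
Krt6a: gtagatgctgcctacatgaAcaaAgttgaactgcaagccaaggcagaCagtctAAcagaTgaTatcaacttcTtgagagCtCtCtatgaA
Krt6b: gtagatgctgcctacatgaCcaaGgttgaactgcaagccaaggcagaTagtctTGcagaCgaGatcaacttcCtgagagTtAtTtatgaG

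RefSeq promoter windows (GRCm38.p6) were at hand for Krt10, Krt13, Krt23 and Krt78. The 250 bases before the start of 3 of them are shown, because Krt10 and Krt13 rose together after ADT while Krt78 fell. Each window was searched on both strands for the AP-1 motif TGANTCA, the TATA box TATAAA, the KLF motif CCACCC and AGAACA, a core motif of androgen and glucocorticoid receptor sites. Capitals mark the matches, which read GGGTGG where the KLF motif is on the other strand, and no matches overlapped. The windows are chr11:99389365-99389614 for Krt10, chr11:100121567-100121816 for Krt13 and chr15:101954288-101954537 for Krt78, all on the minus strand.
Krt10: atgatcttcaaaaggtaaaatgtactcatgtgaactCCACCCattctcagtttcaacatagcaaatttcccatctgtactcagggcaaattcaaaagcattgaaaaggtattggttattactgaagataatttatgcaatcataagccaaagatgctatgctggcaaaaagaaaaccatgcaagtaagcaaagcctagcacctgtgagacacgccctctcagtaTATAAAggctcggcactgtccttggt
Krt13: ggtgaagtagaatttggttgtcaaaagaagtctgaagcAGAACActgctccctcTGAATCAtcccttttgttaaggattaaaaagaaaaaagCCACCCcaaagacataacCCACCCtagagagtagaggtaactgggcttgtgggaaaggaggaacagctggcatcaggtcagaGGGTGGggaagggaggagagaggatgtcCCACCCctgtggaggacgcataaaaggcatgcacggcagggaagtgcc
Krt78: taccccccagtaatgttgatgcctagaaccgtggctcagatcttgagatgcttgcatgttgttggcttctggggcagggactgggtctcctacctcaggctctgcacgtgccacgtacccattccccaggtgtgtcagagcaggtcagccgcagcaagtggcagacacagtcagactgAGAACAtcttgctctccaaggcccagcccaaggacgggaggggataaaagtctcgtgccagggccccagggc

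Krt10 had a TATA box 26 bases before its start and 1 KLF motif. Krt13 had 4 KLF motifs, 1 AP-1 motif 196 bases and 1 AGAACA 212 bases before its start. Krt78 had 1 AGAACA, 72 bases before its start, and the Krt23 window held none of the 4 motifs. Over the promoters of 32851 starts, 6.75% held the AP-1 motif, 12.4% TATAAA, 28.1% the KLF motif and 16.1% AGAACA. A match is a run of letters and not a shown binding site.

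Most of the 10 genes changed after ADT with age in both genotypes, and 7 of them were highest in PPK ADT. In PPK ADT against PP ADT, 9 of the 10 were called, 7 higher and 2 lower, where 59.6% of all genes were called, 32.5% higher and 27.1% lower. The median log2 fold change was 2.44 for the 10 genes, 2.10 without Krt6b, and 0.05 over all genes tested. Between the sham genotypes 7 were called, 2 higher and 5 lower in PPK, against 28.6% of all genes (13.7% higher and 14.9% lower). Their median there was -0.20, or -0.30 without Krt6b, and -0.02 over all genes. Krt6b was listed at 0 in all sham libraries, so the next counts are also given without it. After ADT with age, 10 were called in PP, 7 higher and 3 lower, against 44.2% of all genes (19.1% higher and 25.1% lower), and without Krt6b 9 of 9, 6 higher and 3 lower. In PPK 9 were called, 7 higher and 2 lower, against 62.6% of all genes (31.9% higher and 30.7% lower), and without Krt6b 8 of 9, 6 higher and 2 lower. These comparisons share libraries, so their counts are not independent of each other. The difference of the genotype effects, ADT minus sham, was called for all 9 genes other than Krt6b, 7 of them higher and 2 lower, against 52.8% of all genes (30% higher and 22.8% lower). For Krt6b it equals the ADT difference, because the sham difference is fixed at 0, and it is no separate call.

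**Figure D1:**
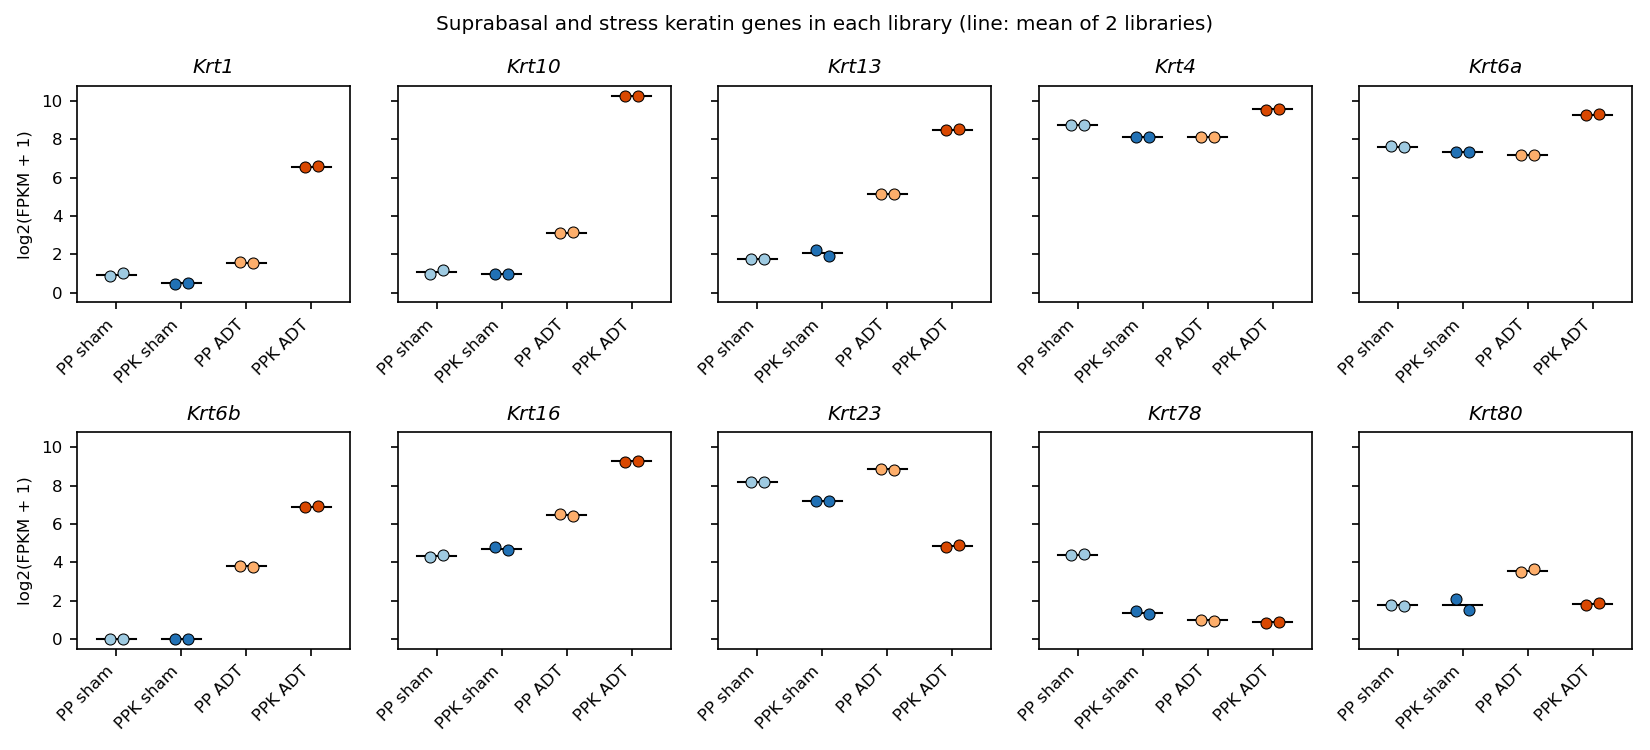
Level of each keratin gene in each library as log2(FPKM + 1), by group, with a point per library and a line at the mean of the 2 libraries. Krt1, Krt10, Krt13, Krt4, Krt6a, Krt6b and Krt16 were highest in both PPK ADT libraries, Krt23 was lowest there, Krt78 was high in PP sham alone and Krt80 was highest in PP ADT.

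Krt10 and Krt1, the type I and type II keratins of the suprabasal epidermis, were near 1 FPKM in sham mice and abundant in PPK ADT. Krt10 (ENSMUSG00000019761, chr11:99385254-99389364) was at 0.956 and 1.23 FPKM in PP sham, 0.955 and 0.930 in PPK sham, 7.57 and 7.95 in PP ADT and 1222 and 1228 in PPK ADT. Its order was therefore PPK ADT over PP ADT over both sham groups, and the sham genotypes differed by -0.10 ± 0.068 on the log2 scale (adjusted p = 0.31). In ADT mice Krt10 was 158-fold higher in PPK (log2 fold change 7.13 ± 0.068, adjusted p = 1.15e-08), which made it the most abundant of the 10 genes there. Krt10 also rose after ADT with age in PP, by 2.07 ± 0.068 (adjusted p = 2.4e-06), and in PPK the change was 9.30 ± 0.068 (adjusted p = 2.42e-09).

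Krt1 (ENSMUSG00000046834, chr15:101845426-101850794) was at 0.789 and 1.02 FPKM in PP sham, 0.365 and 0.424 in PPK sham, 1.97 and 1.88 in PP ADT and 91.5 and 95.8 in PPK ADT. No 2 groups of Krt1 overlapped, and PPK sham was the lowest. Krt1 was 48.6-fold higher in PPK ADT than PP ADT (log2 fold change 5.02 ± 0.082, adjusted p = 7.47e-08). The sham difference went the other way, at -0.45 ± 0.082 (adjusted p = 0.00808), on levels of about 1 FPKM or less. In PP the change after ADT with age was 0.62 ± 0.082 (adjusted p = 0.00122) and in PPK 6.09 ± 0.082 (adjusted p = 2.2e-08). Gm11940 is annotated on the strand opposite Krt10, and the labels give a strand-specific kit but not the strand setting of the counting, so reads of the overlap cannot be told apart. The same holds for genes annotated opposite Krt6a, Krt6b and Krt80.

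Krt4 and Krt13, the mucosal pair, were unequal in sham mice, where Krt4 was already abundant and Krt13 was not. Krt4 (ENSMUSG00000059668, chr15:101918535-101924735), the type II partner, was at 430.4 and 426 FPKM in PP sham, 280.0 and 280.5 in PPK sham, 278 and 280.4 in PP ADT and 745 and 753 in PPK ADT. It was the highest of the 10 genes in both sham groups, and only PPK sham and PP ADT overlapped. Krt4 was lower in PPK than in PP in sham mice (log2 fold change -0.61 ± 0.020, adjusted p = 8.01e-06) and 2.68-fold higher in ADT mice (1.42 ± 0.020, adjusted p = 4.68e-08). After ADT with age it fell by 0.62 in PP (SE 0.020, adjusted p = 2.26e-06) and rose by 1.42 ± 0.020 in PPK (adjusted p = 2.54e-08).

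Krt13 (ENSMUSG00000044041, chr11:100117327-100121566), the type I partner, was at 2.42 and 2.34 FPKM in PP sham, 3.63 and 2.78 in PPK sham, 34.6 and 34.1 in PP ADT and 351 and 363 in PPK ADT. The 4 groups did not overlap. Krt13 was 14.4-fold higher in PP ADT than in PP sham (log2 fold change 3.39 ± 0.091, adjusted p = 1.18e-06), and PPK ADT was 10.4-fold above PP ADT (3.34 ± 0.091, adjusted p = 4.67e-07). In PPK the change after ADT with age was 6.42 ± 0.091 (adjusted p = 2.54e-08). The sham difference of 0.31 ± 0.091 passed narrowly (adjusted p = 0.0486) and did not pass in 12 alternatives, where the adjusted p was 0.0504 to 0.185. It was 0.16 without PPK sham replicate A, the higher of its 2 libraries.

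The stress keratins Krt6a, Krt6b and Krt16 were highest in PPK ADT, but they differed in what ADT with age did in PP. Krt6a (ENSMUSG00000058354, chr15:101689910-101694307), a type II keratin, was at 197 and 192.5 FPKM in PP sham, 158 and 158 in PPK sham, 143 and 144 in PP ADT and 606 and 629 in PPK ADT. PP sham lay above PPK sham, PPK sham above PP ADT, and PPK ADT above all of them without overlap. Krt6a was 4.30-fold higher in PPK ADT than PP ADT (log2 fold change 2.10 ± 0.027, adjusted p = 3.55e-08). It was lower in PPK in sham mice (-0.30 ± 0.027, adjusted p = 0.000393) and fell by 0.44 after ADT with age in PP (SE 0.027, adjusted p = 3.51e-05), while it rose by 1.96 ± 0.027 in PPK (adjusted p = 2.28e-08).

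Krt6b (ENSMUSG00000023041, chr15:101676023-101680287) was listed at 0 in all 4 sham libraries, at 13.2 and 12.4 FPKM in PP ADT, and 117 and 120.2 FPKM were listed for PPK ADT. Krt6a, near-identical to it, was at 158 to 197 FPKM in those sham libraries. Whether the division of reads between both genes set the listed 0 was not tested, and no fold change against sham is given. In ADT mice Krt6b was 9.24-fold higher in PPK (log2 fold change 3.11 ± 0.061, adjusted p = 1.36e-07). With both genes summed, an alternative chosen after the data were seen, the log2 fold change was 2.23 ± 0.026 for PPK ADT against PP ADT and -0.31 ± 0.026 for PP ADT against PP sham, and no call of Krt6a changed.

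Krt16 (ENSMUSG00000053797, chr11:100246091-100248902), the type I partner of the Krt6 proteins, was at 18.3 and 19.7 FPKM in PP sham, 26.7 and 23.9 in PPK sham, 91.6 and 84.7 in PP ADT and 609.9 and 618 in PPK ADT. It stepped up from PP sham to PPK sham to PP ADT to PPK ADT with no overlap. In ADT mice Krt16 was 6.96-fold higher in PPK (log2 fold change 2.79 ± 0.065, adjusted p = 2.52e-07) and in sham mice 1.33-fold higher (0.40 ± 0.065, adjusted p = 0.00524). It rose after ADT with age in PP, by 2.16 ± 0.065 (adjusted p = 1.68e-06), and in PPK by 4.55 ± 0.065 (adjusted p = 2.61e-08). Of the stretches of 50 bases in Krt16 transcripts, 37.6% occur in another annotated gene. The largest share, 25.2%, lies in the gene model Gm11597. This model was listed at 0 and 2.80 FPKM in PP sham, 2.58 and 2.41 in PPK sham and 0 in all ADT libraries, and whether reads were divided between it and Krt16 was not tested.

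Krt23 (ENSMUSG00000006777, chr11:99477974-99493137), a type I keratin, was lowest in PPK ADT. It was at 291 and 287 FPKM in PP sham, 148 and 148 in PPK sham, 463 and 459 in PP ADT and 26.6 and 28.9 in PPK ADT. PP ADT was thus the highest group, PPK ADT the lowest, and none overlapped. Krt23 was 16.6-fold lower in PPK ADT than PP ADT (log2 fold change -4.01 ± 0.039, adjusted p = 1.17e-08) and 1.95-fold lower in PPK sham than in PP sham (-0.96 ± 0.039, adjusted p = 1.7e-05). After ADT with age it rose by 0.67 ± 0.039 in PP (adjusted p = 2.8e-05) and fell by 2.38 in PPK (SE 0.039, adjusted p = 4.87e-08). Its genotype difference had the same sign in sham and in ADT mice, and the difference of effects was -3.05 ± 0.056 (adjusted p = 2.05e-07). The simple keratin genes Krt8 and Krt18 were likewise highest in PP ADT and lowest in PPK ADT. Between the sham genotypes they parted from Krt23, with log2 fold changes of 0.09 ± 0.021 and 0.14 ± 0.035.

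Krt78 (ENSMUSG00000050463, chr15:101946001-101954287), a type II keratin whose gene lies beside the simple keratin gene Krt8, was found at a level in PP sham alone. It was at 19.7 and 20.3 FPKM in PP sham, 1.71 and 1.45 in PPK sham, 1.02 and 0.935 in PP ADT and 0.807 and 0.880 in PPK ADT. The 3 groups other than PP sham lay close together, although their libraries did not overlap. Krt78 was 12.7-fold lower in PPK sham than in PP sham (log2 fold change -3.03 ± 0.083, adjusted p = 4.75e-06) and 20.4-fold lower in PP ADT than in PP sham (-3.41 ± 0.083, adjusted p = 7.69e-07). In PPK it fell by 0.48 after ADT with age (SE 0.083, adjusted p = 0.0023). PPK ADT and PP ADT differed by -0.10 ± 0.083 (adjusted p = 0.328). The difference of effects of 2.92 ± 0.117 (adjusted p = 3.96e-06) is positive because the sham genotypes were far apart and the ADT genotypes were not, with no rise of Krt78 in PPK ADT.

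Krt80 (ENSMUSG00000037185, chr15:101347444-101370162), a type II keratin, was highest in PP ADT. It was at 2.40 and 2.36 FPKM in PP sham, 3.26 and 1.83 in PPK sham, 10.4 and 11.5 in PP ADT and 2.44 and 2.66 in PPK ADT. The 2 PPK sham libraries lay on both sides of PP sham and of PPK ADT, so these groups overlapped, and PP ADT lay above them all. Krt80 was 4.60-fold higher in PP ADT than in PP sham (log2 fold change 1.82 ± 0.18, adjusted p = 0.000331) and 4.29-fold lower in PPK ADT than PP ADT (-1.75 ± 0.18, adjusted p = 0.000219). The sham genotypes differed by 0.04 ± 0.18 (adjusted p = 0.904) and PPK ADT from PPK sham by 0.03 ± 0.18 (adjusted p = 0.896). Both of the latter values rest on PPK sham: without its replicate A they were -0.25 (adjusted p = 0.134) and 0.33 (adjusted p = 0.0364), and PPK ADT against PPK sham was -0.26 without its replicate B.

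**Figure D2:**
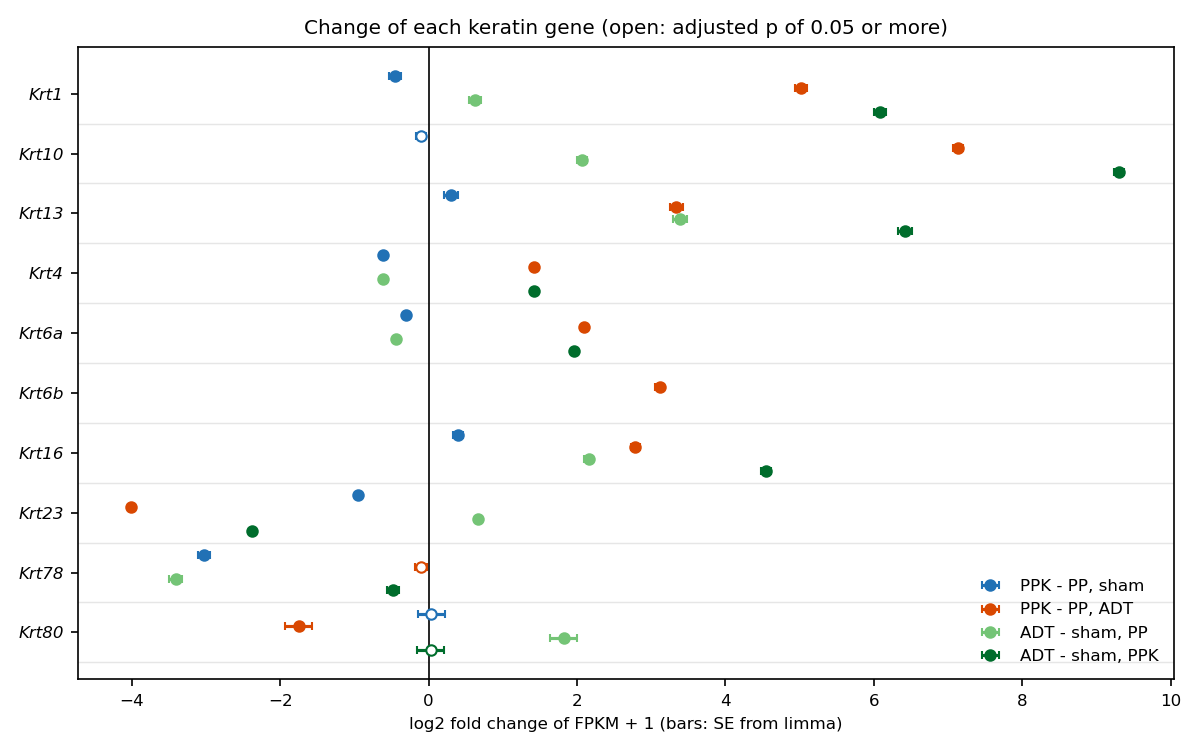
Log2 fold change of FPKM + 1 of each keratin gene, with the SE from limma as bars, for the genotype comparison (PPK - PP) within sham and within ADT, and for the treatment comparison (ADT - sham) within PP and within PPK. Filled points had an adjusted p under 0.05, and Krt6b is drawn for the ADT genotypes alone because it was listed at 0 in sham. Krt10 reached 7.13 in PPK against PP among ADT mice, and Krt23 lay at -4.01.

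The order of the 10 genes by FPKM changed from group to group. In PP sham it ran from Krt4 at 428 ± 3.12 FPKM through Krt23 at 289 ± 2.57 and Krt6a at 195 ± 3.12 to Krt78 at 20.0 ± 0.461 and Krt16 at 19.0 ± 1.00, which overlapped. Krt13 and Krt80 also overlapped there, as did Krt10 and Krt1. In PPK sham Krt4 at 280.2 ± 0.322 FPKM led Krt6a at 158 ± 0.0899 and Krt23 at 148 ± 0.114. In PP ADT the leading gene was Krt23 at 461 ± 3.04 FPKM, before Krt4 at 279 ± 1.97 and Krt6a at 144 ± 1.02. In PPK ADT it was Krt10 at 1225 ± 4.71 FPKM, before Krt4 at 749 ± 5.59, and Krt6a at 618 ± 15.8 and Krt16 at 614 ± 5.70 overlapped behind them. Krt23, first in PP ADT, was eighth in PPK ADT at 27.7 ± 1.62 FPKM.

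Type I and type II partners did not change in step. Partners were compared as the log2 of type I FPKM + 1 over type II FPKM + 1, as a description with no test. An exact permutation test of 2 libraries against 2 cannot give a p below 0.33. For Krt10 over Krt1 this ratio was 0.13 and 0.14 in PP sham, 0.52 and 0.44 in PPK sham, 1.53 and 1.64 in PP ADT and 3.72 and 3.67 in PPK ADT. Krt10 FPKM thus exceeded Krt1 FPKM 13.3-fold and 12.8-fold in the PPK ADT libraries. Ratios between genes depend on the gene lengths used for FPKM, which are not given. GENCODE M21 has 4415 exon bases for Krt1, over 3 transcripts, and 2114 for Krt10. For Krt13 over Krt4 it was -6.98 and -7.00 in PP sham, -5.92 and -6.22 in PPK sham, -2.97 and -3.00 in PP ADT and -1.08 and -1.05 in PPK ADT. For Krt16 over the sum of Krt6a and Krt6b it was -3.36 and -3.22 in PP sham, -2.52 and -2.67 in PPK sham, -0.76 and -0.88 in PP ADT and -0.25 and -0.28 in PPK ADT. In all 3 pairs the type I share was larger in the same order of groups, from PP sham over PPK sham and PP ADT to PPK ADT. In PPK ADT Krt4 remained about 2-fold above Krt13, at 2.12-fold and 2.07-fold, and Krt16 came to 0.843 and 0.825 of its partners.

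**Figure D3:**
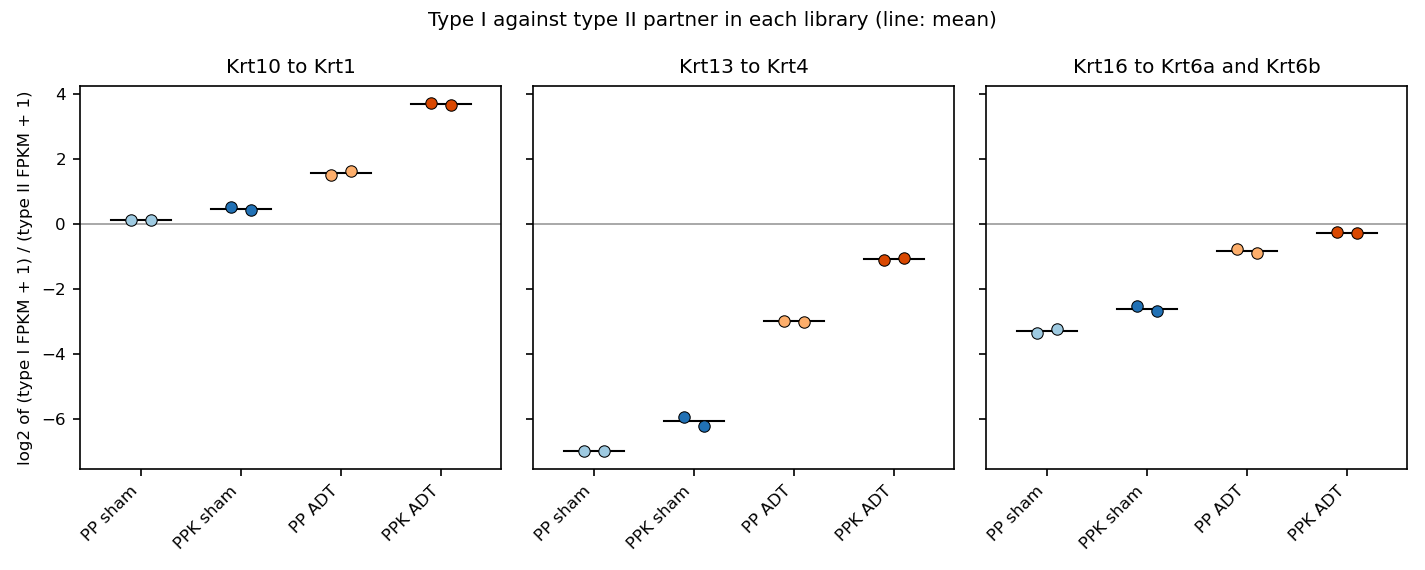
Log2 ratio of the type I to the type II partner, each as FPKM + 1, in each library, with a line at the mean of the 2 libraries of a group and a grey line at equal levels. The ratio was higher in each next group from left to right in all 3 pairs, and Krt10 over Krt1 reached 3.72 and 3.67.

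Over all 54 keratin genes, the shift was one of make-up and of amount. The 10 genes held 16.4% of the summed keratin FPKM in each PP sham library, 10.6% and 10.4% in PPK sham, 15.3% and 15.1% in PP ADT and 33.7% and 33.8% in PPK ADT. This order depends on the denominator: without Krt8 and Krt18 the mean shares were 26.7% in PP sham, 17.8% in PPK sham, 31.2% in PP ADT and 36.2% in PPK ADT. PP ADT then lay above PP sham, and its gap to PPK ADT was smaller than in the full sum. Between PP sham and PP ADT, Krt4 and Krt6a fell while Krt23, Krt16 and Krt13 rose. In PPK ADT Krt10 was 32.4% and 32.0% of the FPKM of the 10 genes, and Krt23 0.704% and 0.752%. In PP ADT Krt10 was 0.726% and 0.767%, and Krt23 44.3% and 44.2%. Krt23 was 30.2% and 30.1% of the FPKM of the 10 genes in PP sham. Summed keratin FPKM was 5868 and 5807 in PP sham, 5866 and 5945 in PPK sham, 6807 and 6869 in PP ADT and 11204 and 11367 in PPK ADT. As a share of all FPKM this was 1.89% and 1.86%, 1.94% and 1.96%, 2.40% and 2.40%, and 3.40% and 3.40%, in the same order. The simple keratins Krt7, Krt8, Krt18, Krt19 and Krt20 together held 66.1% to 70.7% in the other groups and 11.4% and 11.5% in PPK ADT. The basal keratins Krt5, Krt14, Krt15 and Krt17 held 14.0% to 23.2% there and 54.6% and 54.4% in PPK ADT. Outside PPK ADT this class was mostly Krt15, with means of 809 FPKM in PP sham, 1273 in PPK sham and 702 in PP ADT. Krt5 had means of 28.5, 21.5 and 95.5 FPKM in these groups, and Krt14 8.78, 22.0 and 15.8. Type I over type II FPKM was 1.74 to 2.16 in the other groups and 1.15 and 1.17 in PPK ADT.

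**Figure D4:**
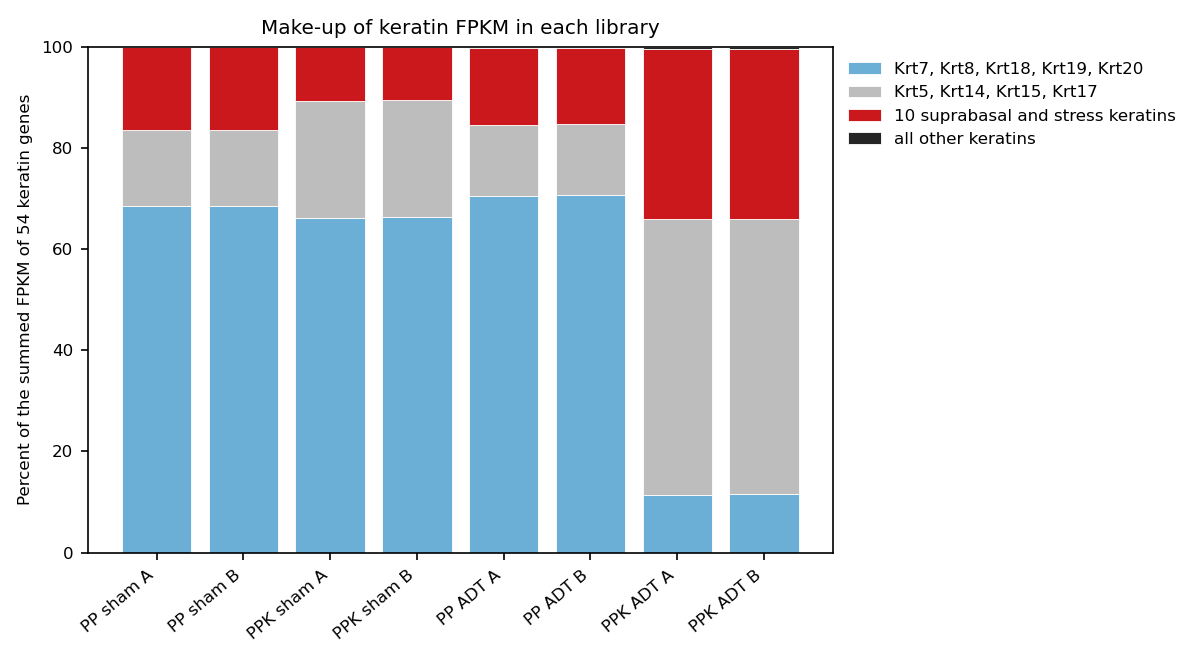
Percent of the summed FPKM of 54 keratin genes held by the simple keratins, the basal keratins, the 10 suprabasal and stress keratins and all others, as a stacked bar per library. The 10 genes made up 33.7% and 33.8% in PPK ADT and 10.4% to 16.4% in the other libraries.

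Along both keratin clusters, high and silent genes stood side by side. The type I cluster on chromosome 11 holds 27 keratin genes over 1037 kb, 4 of them described here, and the cluster on chromosome 15 holds 27 over 685 kb with the other 6. Of the 44 other keratin genes 31 stayed under 1 FPKM in every library, 14 of these listed at 0 throughout, and 13 were tested. The genes near Krt10 that stayed near 0 include hair follicle sheath keratins such as Krt25, Krt27 and Krt28. On the other side of Krt10, Krt12 had a mean of 0.014 FPKM in PP ADT and 3.55 in PPK ADT, and Krt20, next to Krt12, was also higher in PPK ADT. Of the 13 others tested, 9 were higher and 4 lower in PPK ADT than PP ADT, with a median log2 fold change of 0.46, where 59.6% of all genes were called. Krt5, the basal type II keratin, was at 95.5 ± 1.80 FPKM in PP ADT and 3243 ± 0.310 in PPK ADT, and its partner Krt14 at 15.8 ± 2.01 and 1523 ± 27.1. Krt17, the stress keratin next to Krt16, was at 144 ± 2.21 FPKM in PP ADT and 419 ± 3.79 in PPK ADT. Krt20, known from gut and bladder surface cells, was at 0.583 ± 0.130 and 51.8 ± 3.55 FPKM, and Krt79, next to Krt78 and Krt4, at 0.538 ± 0.134 and 24.5 ± 1.59. Krt15 was at 702 ± 4.83 and 966 ± 21.5 FPKM and Krt7 at 63.4 ± 0.856 and 70.9 ± 0.199. Krt8 at 1870 ± 19.2 and 290.2 ± 5.73, Krt18 at 1634 and 1642 against 477 and 507, and Krt19 at 1260 ± 12.8 and 389 ± 3.81 FPKM were lower in PPK ADT. The group with high Krt1 and Krt10 was thus also the one with the highest Krt5 and Krt14.

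**Figure D5:**
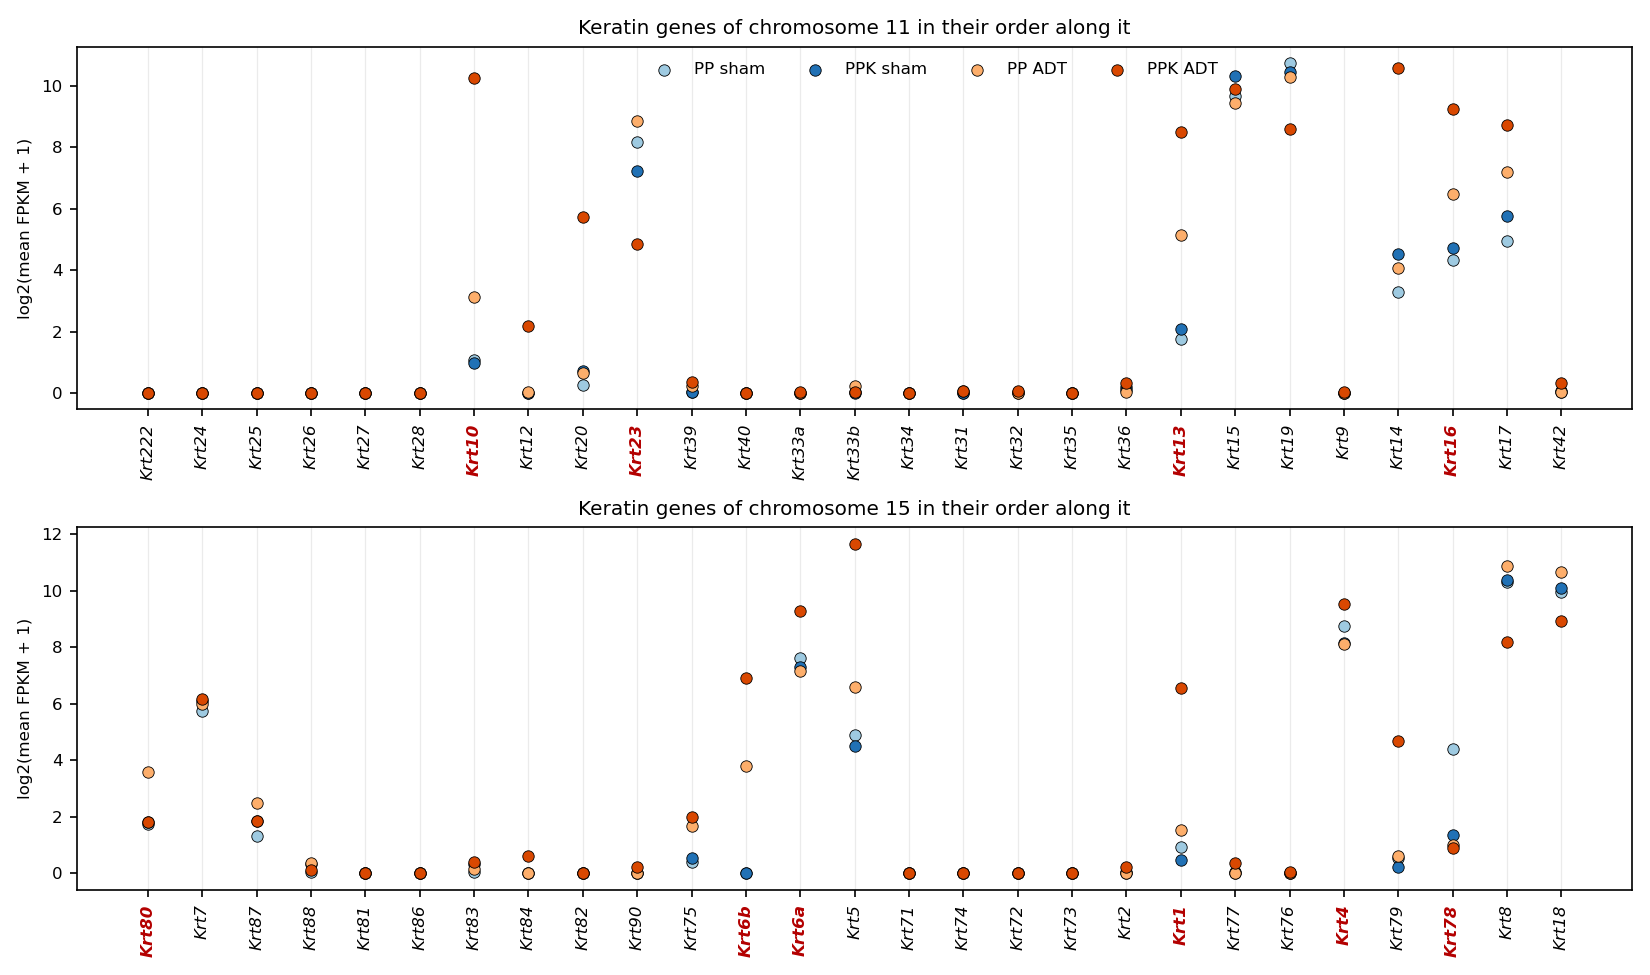
Log2 of the mean FPKM + 1 of each keratin gene in each of the 4 groups, in the order of the genes along chromosome 11 and chromosome 15, with the 10 genes described here in red bold letters. Krt10 stood high in PPK ADT, with Krt25, Krt26, Krt27 and Krt28 at or near 0 on one side. On its other side Krt12 and Krt20 were also highest in PPK ADT. Of the 44 other keratin genes, 31 were under 1 FPKM in every library.

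For each of the 10 genes the 2 nearest profiles were looked up among 7530 protein-coding candidates. Candidates had a group mean of at least 5 FPKM, and all keratin genes were left out of them. Nearness was the Euclidean distance of log2(FPKM + 1) centred over the 8 libraries. The 8 libraries form 4 groups, so this is likeness over few independent points. Nearest to Krt1 were Fabp5, a fatty acid binding protein of epidermis, at a distance of 0.490, and Teddm3 at 0.727. Nearest to Krt10 were Tmprss11b, a transmembrane serine protease, at 2.14 and Ifitm1 at 2.24, so no candidate matched the size of its change. Krt13 and Krt6b shared their nearest candidates, the chemokine Cxcl13 at 1.097 and 1.117 and Fmo6 at 1.101 and 1.088. Both are keratins, so they were not candidates for each other. Acsl1, an enzyme that activates fatty acids, was near Krt4 at 0.355. For Krt6a they were Kctd15 at 0.251 and Rrad at 0.253, and for Krt16 BC100530 at 0.336 and Tmprss11g at 0.536. Scara3 at 0.888 and Tmem238l at 0.872 were nearest to Krt23. Tcaf2 at 0.563 and 9530053A07Rik at 0.607 were nearest to Krt78, and Tcaf2 itself ran from 44.1 FPKM in PP sham to 4.70 in PPK sham. Grb10 at 0.513 and the transglutaminase Tgm2 at 0.639 were nearest to Krt80.

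Regulators of stratified differentiation moved in both directions. Of 25 listed regulators 15 were higher and 6 lower in PPK ADT than PP ADT, with a median log2 fold change of 0.40, where 32.5% of all genes were higher and 27.1% lower. In PP ADT against PP sham, where Krt1, Krt10 and Krt13 also rose, 10 were higher and 12 lower (19.1% and 25.1% of all genes), with a median of -0.06. Trp63, the basal master regulator of stratified epithelia, was at 0.975 and 0.979 FPKM in PP ADT and 23.4 and 23.2 in PPK ADT. Cebpa, a regulator of keratinocyte differentiation, went from 11.2 and 11.6 FPKM to 71.6 and 71.0, and Klf5 from 55.9 and 56.2 to 181 and 170.5. Between the sham genotypes 6 of the 25 were higher and 9 lower in PPK, against 13.7% and 14.9% of all genes.

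Of 20 genes listed as keratin filament partners in a broad sense, not all of them known to bind keratins, 17 were tested. In PPK ADT 12 were higher and 4 lower, against 32.5% and 27.1% of all genes, with a median of 1.16. The desmosomal plaque genes Dsp and Pkp1 went from 138 and 138 FPKM to 383 and 381 and from 47.1 and 45.5 to 197 and 194. Sfn, an epidermal 14-3-3 protein gene, was at 523 and 521 FPKM in PP ADT and 1480 and 1499 in PPK ADT, and Trim29 at 31.4 and 30.6 and at 145 and 145.

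Genes of wounded and hyperproliferative epidermis did not all go with the stress keratins. Of 22 listed 18 were tested, and 10 were higher and 7 lower in PPK ADT, against 32.5% and 27.1% of all genes, with a median of 0.48. Ereg, a growth factor of keratinocytes, was at 2.52 and 2.42 FPKM in PP ADT and 21.1 and 21.6 in PPK ADT. The cytokine gene Il1a was at 15.7 ± 0.931 FPKM and at 4.66 ± 0.0321, and the urokinase receptor gene Plaur at 183 and 189 and at 104 and 103. Both were therefore lower in the group with the highest Krt6a and Krt16. In PP, where Krt16 rose and Krt6a fell after ADT with age, 12 were higher and 2 lower, against 19.1% and 25.1% of all genes.

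Markers of the labelled epithelium and of other cells moved with these changes, and their part in the keratin values was not tested. Of 12 prostate epithelium genes, Krt8 and Krt18 among them, none was higher and 9 were lower in PPK ADT, against 32.5% and 27.1% of all genes. Their summed FPKM was 5403 to 5438 in PP ADT and 2013 to 2030 in PPK ADT. Among them Tmprss2 went from 39.1 and 38.0 FPKM to 14.5 and 14.3, and Cd24a, used in the sort, from 514 and 510 to 322 and 316. Itga6, which encodes the CD49f of the sort, was at 34.2 and 32.6 FPKM in PP ADT and 33.9 and 34.4 in PPK ADT. In sham mice Itga6 was lower, at 25.85 and 26.6 FPKM in PP and 17.9 and 16.8 in PPK. After ADT with age its log2 fold change was 0.34 ± 0.046 in PP and 0.94 ± 0.046 in PPK. Of 12 fibroblast and endothelial genes 8 were tested and 7 were higher in PPK ADT, none lower, against 32.5% and 27.1% of all genes. Their summed FPKM was 7.32 to 7.66 in PP sham, 21.8 to 21.9 in PPK sham, 5.19 to 5.29 in PP ADT and 31.4 to 33.0 in PPK ADT, with none listed at 0. Col1a1 was at 0.282 and 0.125 FPKM in PP ADT, against 7.68 and 6.91 in PPK ADT. Col3a1 and Col1a2 were also higher there, and so was Dcn.

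Of 15 macrophage and lymphocyte genes 3 were tested, and Lyz2 was higher and Cd14 lower in PPK ADT. For this and the following lists, the shares of all genes in PPK ADT against PP ADT were again 32.5% higher and 27.1% lower. Summed FPKM of this list was 54.6 to 55.5 in PP sham, 121 in both PPK sham libraries and 123 to 131 in PP ADT. It was 46.1 to 48.7 in PPK ADT, where Cd3e, Cd3d, Cd8a and Nkg7 were listed at 0. In each group 3 of the 15 genes reached 1 FPKM. Cd14 alone was at 41.3 and 41.7 FPKM in PP sham, 89.4 and 91.5 in PPK sham and 96.2 and 101 in PP ADT. It made up most of the sum there, but not in PPK ADT, where it was at 16.4 and 13.6. Which cells Cd14 came from was not tested, so the sum is not read as an amount of macrophages or lymphocytes. Skin appendage and melanocyte genes, a list of 22, summed to 8.44 to 9.58 FPKM in PP sham, 8.47 to 9.16 in PPK sham, 11.9 to 12.0 in PP ADT and 6.17 to 7.52 in PPK ADT. The melanocyte genes Tyr and Tyrp1 and the hair genes Krt35, Krt81, Krt86 and Hoxc13 were among the 11 listed at 0 in PPK ADT, against 16 listed at 0 in each sham group and 14 in PP ADT. Of the 4 genes tested 1 was higher and 2 were lower in PPK ADT. Of 8 urothelium genes 7 were tested, with 1 higher, Krt20, and 5 lower in PPK ADT. Their summed FPKM was 164 to 167 in PP sham, 66.0 to 69.3 in PPK sham, 136 to 140.5 in PP ADT and 89.4 to 94.2 in PPK ADT, and none was listed at 0 in either ADT group. Of the sum in PPK ADT, Krt20 alone made up 49.3 and 54.3 FPKM. Upk1b, a bladder surface gene, was at 62.7 and 61.0 FPKM in PP sham and 4.15 and 3.54 in PPK sham, the same pair of groups in which Krt78 fell. In PP ADT the genes parted, with Upk1b at 27.6 and 28.5 FPKM and Krt78 at 1.02 and 0.935.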

How the data were processed

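Sorted mouse prostate epithelium was profiled by strand-specific RNA-seq in 8 libraries, and 1 FPKM table per library was deposited by the authors. The submitters' processing notes name the build mm10 and FastQC 0.11.2. Which aligner, quantifier and annotation were used is not given in the sources used here. An allele that all groups share and some genes that the naming rule gives are not reported here, and the organoid experiments were not analysed here. Symbols came from GENCODE M21 for 55154 of 55335 identifiers. The tables hold no counts. Of low FPKM values 14.0 to 15.8% were whole multiples of the library's commonest lowest step (tolerance 0.02, multiples up to 5), so reads were not recovered, depth is unknown and no count test or counting interval is given.

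Groups came from the labels. The 14000 genes that reached 1 FPKM in 2 or more libraries were fitted on the log2(FPKM + 1) scale in R 4.3.3 with limma 3.58.1. The model had a mean per group and a trended prior variance (residual degrees of freedom 4, prior 2.4), and tests were two-sided, with Benjamini-Hochberg adjustment in each of 5 comparisons. The fit was also run on values simulated from its own fitted means and spread. Such values obey the model, so this run cannot show whether the model suits these FPKM values. Python 3.11.15 with numpy 2.4.6, pandas 2.3.3 and matplotlib 3.10.9 made tables and figures. The members, gene lists and tests were chosen with earlier results of these data known. Named were the 10 genes, Kmt2c and other keratins with a group mean of at least 5 FPKM. Also named were the 2 non-keratin genes of nearest profile per keratin and up to 4 genes of each list. The latter were picked by smallest adjusted p in PPK ADT against PP ADT. Epcam, Itga6, Ptprc, Pbsn, Gm11597, Krt12, Krt25, Krt26, Krt27, Krt28 and the genes named as listed at 0 were named after their values were seen. Among listed genes, 3 of the wound list had no match by symbol. Libraries within a group correlated at 0.986 to 0.988 over genes, those of different groups at 0.805 to 0.958. Alternatives were quantile normalization, median-of-ratios scaling, pseudocount 0.1, a filter at a mean of 5 FPKM or none, a replicate block, no trend, a fit of only the 2 groups, each library left out, and Krt6a and Krt6b summed.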

Additional observations from a re-analysis of the deposited data

Results flagged for a closer look

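The genotype effect, PPK minus PP, differed between ADT and sham mice for 9 of the 10 keratin genes by the interaction term of the limma fit (log2 scale, adjusted p under 0.05 over 14000 genes, where 52.8% of all genes were called). The difference was 7.23 for Krt10, 5.46 for Krt1, 3.03 for Krt13 and 2.03 for Krt4. It was 2.40 for Krt6a and 2.39 for Krt16. For Krt6b the fitted 3.11 is its ADT difference alone and no separate call, because it was listed at 0 in all sham libraries. Krt78 gave 2.92, from a sham difference that was not found in ADT mice. The difference was -3.05 for Krt23 and -1.79 for Krt80. ADT and age changed together and cannot be told apart.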

How the results depend on the processing

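Of 46 tested values of the 10 genes, 43 kept their direction and their side of the threshold in every alternative run, and 711 of 727 alternative values did. The exceptions were Krt13 between sham genotypes and Krt80 in both comparisons with PPK sham. Krt13 lost its call in 12 alternatives, with adjusted p of 0.111 without a filter, 0.0504 after quantile normalization, 0.0557 with the replicate block, 0.069 without a trend, 0.185 in a fit of only the 2 groups and 0.0758 to 0.165 in 7 of the 8 fits that leave out a library. Krt80 between sham genotypes ran from -0.25 to 0.33 over left-out libraries, and Krt80 in PPK ADT against PPK sham from -0.26 to 0.33, with -0.01 without PPK ADT replicate B. With a lone library left in a group, it is assumed to vary like the other groups.

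With a mean FPKM of at least 5, which tests fewer genes, 4918 genes were called in PPK ADT against PP ADT, 3933 in PP ADT against PP sham, 5056 in PPK ADT against PPK sham and 4476 for the difference of effects, in place of 8340, 6185, 8765 and 7395. Without Krt8 and Krt18 in the sum, the 10 genes held 26.7% of keratin FPKM in PP sham, 17.8% in PPK sham, 31.2% in PP ADT and 36.2% in PPK ADT. With pseudocount 0.1 the log2 ratio of Krt10 to Krt1 was 0.25 in PP sham, 1.08 in PPK sham and 1.96 in PP ADT, and that of Krt13 to Krt4 was -7.43, -6.42 and -3.02. Between groups, same-letter libraries had deviations that correlated at -0.008 to 0.057. With 2 libraries per group this cannot tell whether a letter stands for a shared batch. With the letters as a replicate block, 3755 genes were called between sham genotypes in place of 4000, and 6 of the 10 keratin genes in place of 7. Krt80 has no value at a mean FPKM of at least 5, Krt6b against groups listed at 0 is not compared across alternatives, and the difference of effects cannot be had from only 2 groups. With no counts, FPKM near 1 and below cannot be given a counting error.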
